A study of Mus musculus with 6 samples.

Results

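Blood cells reach the bone marrow, hold on to it and leave it through a small set of surface receptors, and the 8 genes Cxcr4, Cxcr2, Ccr1, Ccr2, Cx3cr1, Cd44, Selplg and S1pr1 encode chemokine, hyaluronan, selectin and sphingosine 1-phosphate (S1P) receptors of this kind. They were taken by symbol from the 55367 genes of the deposited table, which lists all 8, and 7 of them carried enough signal to be tested. S1pr1 did not. Their transcripts were compared between 3 WT and 3 Piezo1cko libraries of leukemia stem cells (LSCs), where Piezo1 encodes a cation channel opened by mechanical force.

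The LSCs were sorted as YFP+Lin-Sca-1-c-Kit+ cells with high CD16/32 and with CD34, from the bone marrow of mice with acute myeloid leukemia (AML) caused by the fusion oncogene MLL-AF9. The study used donors and recipients aged 8 to 10 weeks, and it does not state the age at sorting. Piezo1cko cells derived from donors of the genotype Mx1-cre; Piezo1 fl/fl, and WT cells from Piezo1 fl/fl littermates without Cre, so the WT cells also carried floxed alleles and both groups had received poly(I:C). Mx1-cre is switched on by interferon, which poly(I:C) provokes, and it acts in many cell types and not in LSCs alone. Lin- marrow cells of these donors were transduced with a retrovirus carrying MLL-AF9 and YFP and were transplanted into irradiated C57BL/6 recipients, whose own surviving cells carry no YFP. The study transplanted leukemia cells serially, and the labels do not say which round of transplantation the sorted LSCs came from. The labels also do not say whether the 3 libraries of a group came from separate mice, so that p-values measure only the spread between these libraries, which may be technical.

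As background, chemokine receptors are G protein-coupled receptors that turn a gradient of ligand into directed movement. CXCR4 answers to CXCL12 from marrow stroma and holds stem and progenitor cells in the niche, while CXCR2, on neutrophils, draws them towards the blood. CCR1 and CCR2 steer inflammatory monocytes and their progenitors, CCR2 being needed for monocytes to leave the marrow, and CX3CR1 binds the membrane-anchored ligand fractalkine. CD44 binds hyaluronan and osteopontin and is required for the lodging of leukemia stem cells, PSGL-1 (encoded by Selplg) is the ligand that rolls on P-selectin, and S1PR1 guides cells out along the S1P gradient into the blood.

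The start regions of 3 members are shown because Ccr2 had the largest rise, Cd44 the largest fall, and Cxcr4 is a known target of the hypoxia factor HIF, a subunit of which belongs to the axis named in the study's title. Each run holds 250 bases before and 50 after the RefSeq transcription start on GRCm38.p6, read 5′ to 3′ on the strand of the gene. These are chr9:124101933-124102232 on the plus strand for Ccr2, chr2:102901616-102901915 on the minus strand for Cd44 and chr1:128592250-128592549 on the minus strand for Cxcr4. Capitals mark the HIF core (ACGTG or GCGTG) in Cxcr4 and Cd44 and, at the start of the Cd44 run, the PU.1 word GAGGAAG on the opposite strand.
Ccr2: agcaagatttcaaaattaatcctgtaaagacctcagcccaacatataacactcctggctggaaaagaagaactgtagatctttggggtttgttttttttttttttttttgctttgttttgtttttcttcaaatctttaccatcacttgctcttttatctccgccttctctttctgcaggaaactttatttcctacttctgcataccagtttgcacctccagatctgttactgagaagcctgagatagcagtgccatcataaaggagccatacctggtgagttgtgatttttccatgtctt
Cd44: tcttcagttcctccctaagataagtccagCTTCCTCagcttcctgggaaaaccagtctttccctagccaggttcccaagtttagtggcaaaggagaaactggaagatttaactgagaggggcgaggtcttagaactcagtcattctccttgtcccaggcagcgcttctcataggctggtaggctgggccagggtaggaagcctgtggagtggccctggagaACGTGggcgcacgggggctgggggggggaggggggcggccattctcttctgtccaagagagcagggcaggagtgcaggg
Cxcr4: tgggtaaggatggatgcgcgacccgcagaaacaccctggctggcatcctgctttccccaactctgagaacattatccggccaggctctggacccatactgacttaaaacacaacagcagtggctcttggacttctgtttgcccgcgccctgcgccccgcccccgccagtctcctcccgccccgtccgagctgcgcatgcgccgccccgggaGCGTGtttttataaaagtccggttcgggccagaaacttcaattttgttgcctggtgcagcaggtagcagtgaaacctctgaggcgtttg

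RefSeq start regions were at hand for 6 of the 8 members, Selplg and S1pr1 being the others. Both strands were searched for the HIF core, for the AP-1 word TGANTCA and for the PU.1 word, and no match overlapped another. The HIF core occurred in Cxcr4, with its first base at -39 from the start, in Cd44 at -29, in Ccr1 at -25 and in Cx3cr1 at 33. It was not in the Ccr2 and Cxcr2 windows. Of 32851 start regions of this length in the mouse, 43.8% hold the HIF core, 7.81% the AP-1 word and 13.6% the PU.1 word, and among the 6 members the PU.1 word was found in Cd44, at -221, and the AP-1 word in none. The HIF core was thus found both in receptors that rose in Piezo1cko LSCs (Cxcr4 and Ccr1) and in receptors that fell (Cd44 and Cx3cr1), and a match of letters is no evidence of binding.

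The deposited values are log2 values of the form of a regularized log, in which each gene is drawn towards its own mean, so differences on that scale are smaller than those of the reads. The transform could be undone, and 92.6% of the values of 18355 genes that averaged 1 read or more came within 0.1 of a whole number. Both scales are given here, and "normalised reads" are recovered reads divided by the size factor of the library. Recovered reads on genes ran from 14112118 to 15483610 per library, and they carry no molecular identifiers, so limits drawn from them cover counting error only. Piezo1 had 101, 92.8 and 109 normalised reads in WT LSCs and 36.6, 56.5 and 45.8 in Piezo1cko LSCs, 45.9% of the WT mean, and the reads do not separate floxed exons from the rest of the gene. Among the gate genes, Kit, Cd34, Fcgr3 and Fcgr2b all had at least 1553 reads in each library, whereas Ly6a, which encodes Sca-1, had at most 17. Fcgr2b was 2.08-fold lower in Piezo1cko LSCs, a log2 fold change (log2FC) of -1.06 on recovered reads (limma-voom, adjusted p = 6.4e-12).

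Piezo1cko LSCs held more Ccr2, Ccr1, Cxcr4 and Selplg mRNA and less Cd44 and Cx3cr1 mRNA than WT LSCs, and Cxcr2 gave no call. On the deposited scale, limma called 4 of the 7 receptors tested as higher and 2 as lower (adjusted p under 0.05, Benjamini-Hochberg over all genes), and it called 63.0% of the 16746 genes tested, 31.6% higher and 31.4% lower. With so many genes called in this contrast, the number of receptors called says little about receptors as a group. In all 7 the WT and Piezo1cko libraries did not overlap, beside 66.6% of all genes tested. None of the 7 also exceeded a log2FC of 1 in size, which 0.818% of all genes did, 0.257% higher and 0.561% lower (limma, with an unadjusted p under 0.05 for 6 of the 7 and for 66.6% of all genes). On the recovered reads (limma-voom) the calls were the same 4 higher and 2 lower, beside 62.9% of all genes tested, and again all 7 did not overlap, beside 66.2%. There Ccr2 and Cd44 passed the study's thresholds for a differentially expressed gene (DEG), as did 24.9% of the 17352 genes tested, 12.7% higher and 12.2% lower. For a single gene, an exact permutation of 3 libraries against 3 cannot give a two-sided p under 0.1, and each of the 7 receptors reached that limit. In bulk RNA, fewer cells that express a gene cannot be told apart from less RNA per cell.

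**Figure D1:**
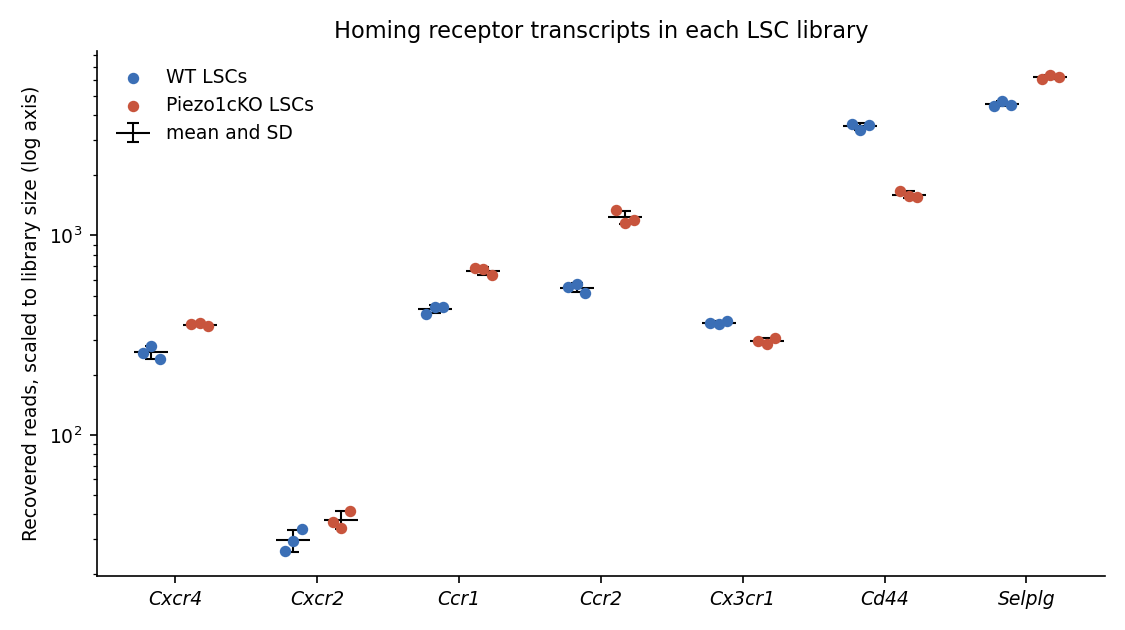
Recovered reads scaled to library size (log axis) for 7 receptors in the 3 WT (blue) and 3 Piezo1cko (red) libraries, with the mean and SD in black. Ccr2, Ccr1, Cxcr4 and Selplg lie higher in all 3 Piezo1cko libraries, Cd44 and Cx3cr1 lower, and for Cxcr2 the highest WT library (33.7) sits just under the lowest Piezo1cko library (34.1).

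Cxcr4 encodes the receptor for CXCL12 and lies on chromosome 1 (128588199 to 128592293, minus strand, GRCm38). It had 256, 279.5 and 241 normalised reads in the WT libraries and 359, 364 and 350.0 in the Piezo1cko libraries. Every Piezo1cko library was above every WT library, and the Piezo1cko libraries were the more alike, with 358 ± 6.93 (SD, n = 3) against 259 ± 19.2 (SD, n = 3). It is a 1.38-fold rise on the reads, with a 95% interval of 1.24 to 1.55. On the deposited scale Cxcr4 went from 8.13 ± 0.05 to 8.37 ± 0.02 (SD, n = 3), a log2FC of 0.24 (SE 0.04, limma adjusted p = 2.38e-05).

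Cxcr2, the neutrophil receptor for CXCL1, CXCL2 and related chemokines, lies on the same chromosome (74153989 to 74161246, plus strand) and was the least abundant of the 7 receptors tested. Its normalised reads were 26.2, 29.3 and 33.7 in WT LSCs and 36.6, 34.1 and 41.7 in Piezo1cko LSCs. The groups touched without overlapping, at a depth of 91 recovered reads in all 3 WT libraries together and 111 in the Piezo1cko libraries. The log2FC was 0.05 on the deposited scale (SE 0.03, limma adjusted p = 0.188) and 0.33 on recovered reads (SE 0.21, limma-voom adjusted p = 0.19). The 95% interval of the fold, 0.918 to 1.72, takes in both no change and the folds seen for Cxcr4 and Ccr1, so it does not show that Cxcr2 was the same in both groups. Of the 50-base words in the Cxcr2 transcripts, 6.68% also occur in transcripts of other genes, the largest share among the 8 members.

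Ccr1 and Ccr2 lie in the same stretch of chromosome 9, with other receptor genes between them, and rose by different amounts. Ccr1 (123962124 to 123968692, minus strand) is a receptor for CCL3, CCL5, CCL6 and CCL9 on myeloid cells. Its normalised reads were 406, 438 and 438 in WT LSCs and 685, 678 and 631 in Piezo1cko LSCs. The gap between the groups was many times the spread within either, and the rise was 1.56-fold (95% interval 1.42 to 1.70). On the deposited scale the means were 8.87 ± 0.04 and 9.25 ± 0.04 (SD, n = 3), a log2FC of 0.38 (SE 0.04, limma adjusted p = 4.35e-08).

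Ccr2 (124101950 to 124113557, plus strand) encodes the CCL2 receptor of inflammatory monocytes and had the largest rise of the 8. It had 554, 571 and 518 normalised reads in WT LSCs and 1342, 1159 and 1199 in Piezo1cko LSCs. The lowest Piezo1cko library stood above the highest WT library, and Piezo1cko replicate 1 was the highest of all. The mean went from 548 ± 27.4 to 1233 ± 96.5 (SD, n = 3), a 2.25-fold rise with a 95% interval of 2.04 to 2.47. The log2FC was 0.75 on the deposited scale (SE 0.04, limma adjusted p = 7.78e-12) and 1.17 on recovered reads (SE 0.06, limma-voom adjusted p = 5.55e-10). Of the 50-base words of Ccr2, 1.91% also occur in transcripts of other genes.

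Cx3cr1, the fractalkine receptor, sits on the same chromosome (119901616 to 120069879, minus strand) and fell. Its normalised reads were 366, 360.3 and 371 in WT LSCs and 296, 286 and 305 in Piezo1cko LSCs. The 3 WT libraries were within a narrow band (SD 5.54) and all 3 Piezo1cko libraries lay under it. The Piezo1cko mean was 80.8% of the WT mean (95% interval 73.0 to 89.3%), with a log2FC of -0.16 on the deposited scale (SE 0.04, limma adjusted p = 0.000618). An exon of Cx3cr1 overlaps an exon of Gm33858 on the opposite strand, and the counting is not stated to use strand, so reads there could belong to either gene.

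Because Ccr2 and Cx3cr1 mark different kinds of monocyte in the mouse, their ratio per exon length was taken within each library, where library size cancels. It was 1.01, 1.06 and 0.929 in the WT libraries and 3.03, 2.70 and 2.62 in the Piezo1cko libraries. The 2 receptors were thus about level in WT LSCs and Ccr2 was the more abundant in every Piezo1cko library, by 2.78 ± 0.215 (SD, n = 3). The pair was chosen after its values were seen and was not tested.

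**Figure D2:**
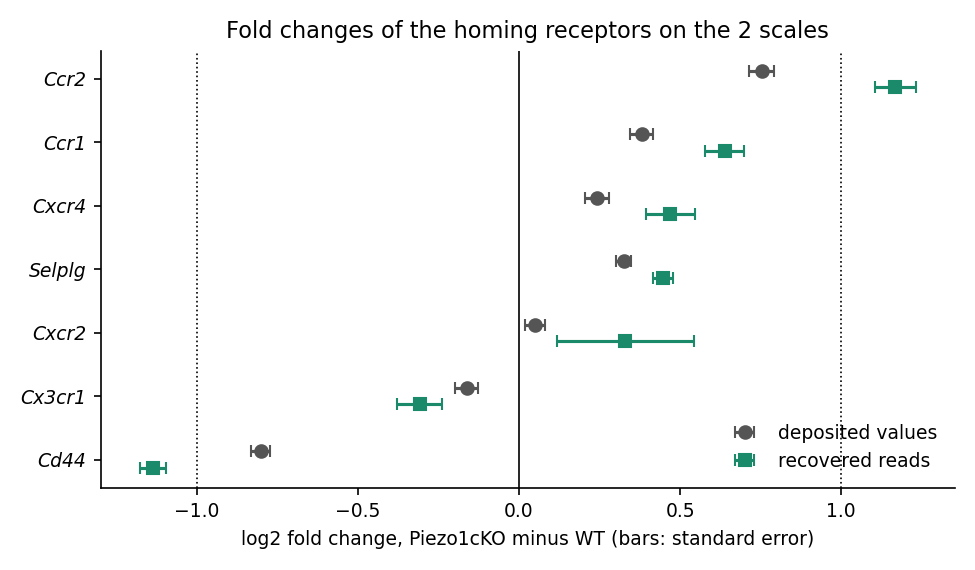
log2 fold change of each tested receptor, Piezo1cko minus WT, with its SE, on the deposited values (grey circles) and on the recovered reads (green squares), with dotted lines at -1 and 1. Ccr2 (1.17) and Cd44 (-1.14) pass the dotted lines on the recovered reads and none does on the deposited values.

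Cd44 had the largest fall and Selplg, the most abundant of the 8, a rise. CD44, the hyaluronan receptor (chromosome 2, 102811141 to 102901665, minus strand), gave 3629, 3374 and 3559.6 normalised reads in WT LSCs and 1674, 1569 and 1565 in Piezo1cko LSCs. The highest Piezo1cko library did not reach the level of the lowest WT library by a wide margin, and both groups were tight. The mean fell from 3521 ± 132 to 1603 ± 61.5 (SD, n = 3), to 45.5% of the WT level (95% interval 42.8 to 48.3%). On the deposited scale Cd44 fell by 0.80 on the log2 scale (SE 0.03, limma adjusted p = 4.92e-14), and the log2FC of the recovered reads was -1.14 (SE 0.04, limma-voom adjusted p = 3.76e-12). The counts are per gene, so the many splice forms of Cd44 were not told apart.

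Selplg (chromosome 5, 113818536 to 113832644, minus strand) encodes the protein core of PSGL-1, which binds selectins once sugars have been added to it. It had 4474, 4717 and 4531 normalised reads in WT LSCs and 6061, 6396 and 6248 in Piezo1cko LSCs. The groups stood well apart, and the fold was 1.36 (95% interval 1.30 to 1.43). The deposited means were 12.22 ± 0.03 and 12.55 ± 0.03 (SD, n = 3), a log2FC of 0.32 (SE 0.02, limma adjusted p = 1.62e-09).
Per exon length, Selplg and Cd44 moved apart within each library. The ratio of Selplg to Cd44 was 1.96, 2.22 and 2.02 in the WT libraries and 5.74, 6.46 and 6.33 in the Piezo1cko libraries, a pair likewise chosen after its values were seen.

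S1pr1 (chromosome 3, 115710433 to 115715072, minus strand) encodes the S1P receptor that lets lymphocytes and progenitors leave for the blood, and it was close to undetected. There was 1 recovered read in WT replicate 1, and none in the other 5 libraries. A count of 0 in 43663102 Piezo1cko reads allows up to 3 reads, which is 0.0687 CPM (recovered reads scaled to library size). Its deposited value was the lowest in the table in each library, and no fold is given since both groups are under that limit.

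Levels were then compared between receptors as CPM per kilobase of exon (RPKM). In WT LSCs the order was Selplg at 71.9 ± 2.0, Cd44 at 34.9 ± 1.31, Ccr1 at 10.1 ± 0.442, Cxcr4 at 9.63 ± 0.713, Cx3cr1 at 5.46 ± 0.0826, Ccr2 at 5.44 ± 0.272 and Cxcr2 at 0.655 ± 0.0828 (SD, n = 3). Ccr1 and Cxcr4 overlapped in this order, and so did Cx3cr1 and Ccr2, while the other neighbours among the members did not. In Piezo1cko LSCs Selplg was at 98.1 ± 2.64, Cd44 at 15.9 ± 0.609, Ccr1 at 15.8 ± 0.703, Cxcr4 at 13.3 ± 0.258, Ccr2 at 12.3 ± 0.959, Cx3cr1 at 4.41 ± 0.147 and Cxcr2 at 0.826 ± 0.0856. Cd44 now overlapped Ccr1, and Cxcr4 overlapped Ccr2, so the clear step between Cd44 and the chemokine receptors of the WT libraries was no longer seen. S1pr1 was last of the 8 in both groups.

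**Figure D3:**
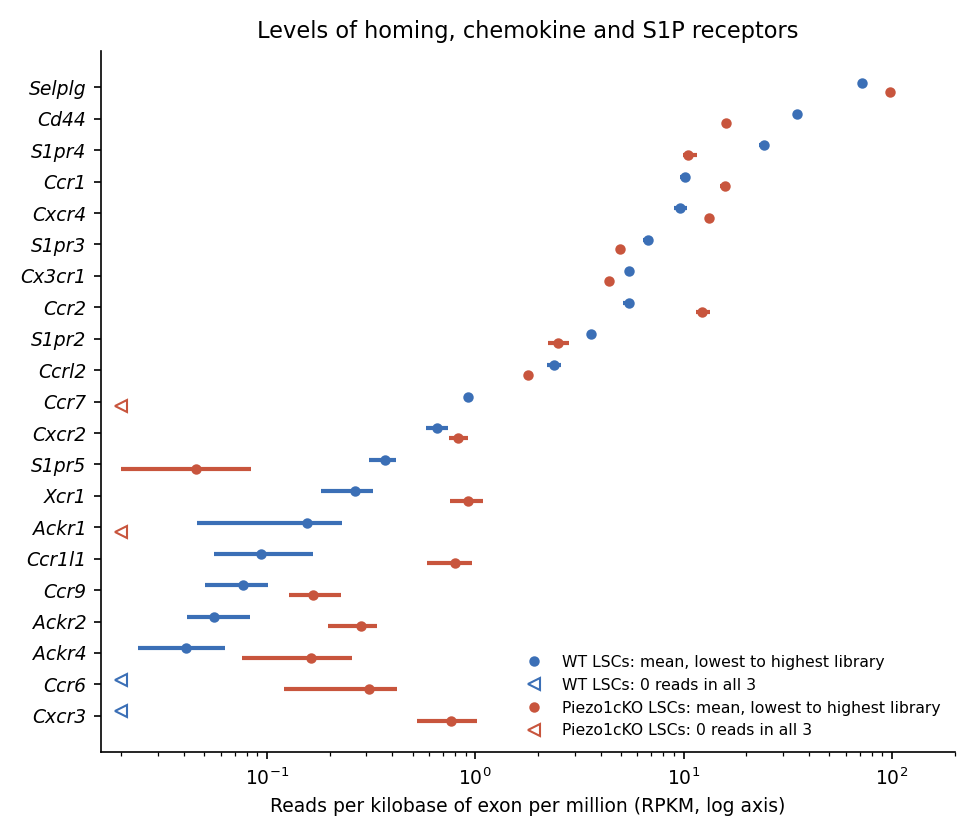
Level per exon length (RPKM, log axis) of the homing receptors and other chemokine and S1P receptors, in the order of their WT means, with points for the mean and lines from the lowest to the highest of 3 libraries. Open triangles at the left edge mark 0 reads in all 3 libraries, the Piezo1cko line of S1pr5 also reaches 0 reads, and S1pr1, with 1 read in all, is not drawn.

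Among the S1P receptors, S1pr4, S1pr3 and S1pr2 carried the signal that S1pr1 lacked, and all were lower in Piezo1cko LSCs. S1pr4, a receptor of hematopoietic cells, had 864 ± 39.7 normalised reads in WT LSCs and 374 ± 30.5 in Piezo1cko LSCs (SD, n = 3), 2.31-fold fewer, with a log2FC of -0.73 on the deposited scale (SE 0.04, limma adjusted p = 1.06e-11). S1pr3 fell to 73.0% of the WT level (limma adjusted p = 1.34e-05) and S1pr2 to 69.1% (limma adjusted p = 1.12e-05). Of the 17 genes tested from the list of S1P receptors and metabolism, 10 were lower and 4 higher on the deposited scale, with a median of -0.09 against 0.000612 over all genes tested. On that scale 31.4% of all genes tested were lower and 31.6% higher, and the counts of every list below stand beside these shares. Sphk1, a kinase that makes S1P, had 136 reads in WT LSCs and none in Piezo1cko LSCs, and was at least 43.9-fold lower against a floor of 3 reads over the group. It passed the filter through the WT libraries alone, so its call, among the 10 lower, is no support. Klf2, the transcription factor that drives S1pr1 in lymphocytes, fell to 31.8% of the WT level (limma adjusted p = 2.7e-09). Cd69, which takes S1PR1 off the surface, rose 1.23-fold (limma adjusted p = 7.62e-06).

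The ligands of these receptors were read in the same cells. Ccl3, encoding a ligand of CCR1, and Ccl4, encoding a related inflammatory chemokine, were the ligands past both DEG thresholds on the deposited scale. Ccl3 went from 687 ± 27.4 to 2298 ± 67.6 normalised reads (SD, n = 3), 3.35-fold, with a deposited log2FC of 1.18 (SE 0.03, limma adjusted p = 3.61e-16). Ccl4 went from 46.4 ± 2.13 to 295 ± 22.9, 6.35-fold, with a log2FC of 1.01 (SE 0.04, limma adjusted p = 1.16e-13). Both rose in the same libraries as Ccr1. Ccl9, a further CCR1 ligand, rose 1.75-fold, and Ccl6 1.15-fold (limma adjusted p = 8.49e-10 and 0.02). Ccl5, which encodes another CCR1 ligand, had 8, 10 and 5 reads in the WT libraries and 0 in each Piezo1cko library, at least 7.43-fold fewer. Ccl2, the ligand of CCR2, had 24.8 normalised reads in WT LSCs and 32.8 in Piezo1cko LSCs, which gave no call (limma adjusted p = 0.148).
Cxcl12, the stromal ligand of CXCR4, was scarce in the sorted cells, with 10, 25 and 12 reads in the WT libraries and 38, 26 and 24 in the Piezo1cko libraries. Once scaled to library size the groups overlapped, and the deposited log2FC was 0.10 (SE 0.03, limma adjusted p = 0.0206). Cx3cl1, the ligand of CX3CR1, had 7, 15 and 21 reads in WT LSCs and 0 in each Piezo1cko library, at least 13.9-fold fewer. Of the 11 ligands tested, 7 were higher and 3 lower, with a median of 0.10. All 3 called lower had no read in any Piezo1cko library, so they passed the filter through WT LSCs alone and their calls are no support.

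Per exon length, the other chemokine receptors were less abundant than every member except Cxcr2 and S1pr1, and several were seen in 1 group only. Ccrl2 was at 2.39 RPKM in WT LSCs and 1.79 in Piezo1cko LSCs, above Cxcr2 at 0.655 and 0.826. Of 20 listed, 4 had no read in any library (Cxcr1, Cxcr6, Ccr3 and Ccr8), and 11 were tested on the deposited scale, with 7 higher, 4 lower and a median of 0.08. On the recovered reads 12 were tested, 5 of which had no read in one of the groups, so that they passed the filter through the other group alone and their calls are no support. All 5 but Ackr1 were also among the 11 tested on the deposited scale, and the same holds for their calls there. Ccr7, the receptor that leads cells to lymph nodes, had 28, 26 and 29 reads in WT LSCs and 0 in each Piezo1cko library, at least 26.8-fold fewer. Cxcr3 had 0 reads in each WT library and 13, 27 and 19 in the Piezo1cko libraries, at least 20.3-fold more. Ackr3, the scavenger of CXCL12 beside CXCR4, had 3 reads in WT LSCs in all and none in Piezo1cko LSCs.

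Other receptors on chromosome 9 lie near Ccr1 and Ccr2, among them Ccr9, Xcr1 and Ccr1l1. Xcr1, a receptor of cross-presenting dendritic cells, rose 3.48-fold and Ccr9, a gut homing receptor, rose 2.16-fold, beside 1.56-fold for Ccr1 and 2.25-fold for Ccr2. The reads of Ccr1l1 went from 5 to 41 over the group. Not every receptor of this stretch rose, and Ccr3 and Cxcr6 there had no read in any library.

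Partners of CD44 moved in both directions. Ezr, which encodes ezrin and ties the tail of CD44 to actin, fell from 961 ± 65.3 to 331 ± 39.6 normalised reads (SD, n = 3), 2.90-fold, with a deposited log2FC of -0.94 (SE 0.04, limma adjusted p = 2.38e-12). Spp1, whose product osteopontin is a ligand of CD44, fell 4.11-fold, from 317 ± 23.4 to 77.2 ± 3.42 (limma adjusted p = 1.35e-12). Cd74, the invariant chain that pairs with CD44 as a receptor for MIF, rose instead, from 111 ± 12.6 to 2185 ± 17.2, 19.6-fold (limma adjusted p = 4.22e-20). Of 17 genes tested from this list, 5 were higher, 7 lower and 5 gave no call, with a median of -0.05. The calls of 2 of them are no support, since these genes had no read in 1 group.

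The enzymes that make PSGL-1 able to bind selectins did not all rise with Selplg. Fut7, which adds the fucose that selectins require, rose 1.29-fold, from 677 ± 27.6 to 873 ± 47.0 normalised reads (SD, n = 3; limma adjusted p = 1.85e-05). St3gal4, a sialyltransferase of the same sugar, fell from 721 ± 30.6 to 305 ± 13, 2.36-fold (limma adjusted p = 4.25e-12). Of the 20 genes of the list, all tested, 5 were higher and 10 lower, with a median of -0.06. Among the 10 lower, 1 had no read in any Piezo1cko library, so its call is no support.

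Chemokine receptors signal through Gi proteins and are shut off by receptor kinases, arrestins and RGS proteins. Of 21 genes tested in this list, 10 were higher and 7 lower, with a median of 0.02. Rgs18, a regulator that shortens Gi signals in hematopoietic cells, rose from 1470.0 ± 96.6 to 2993 ± 196 normalised reads (SD, n = 3), 2.04-fold (deposited log2FC 0.72, SE 0.04, limma adjusted p = 5.77e-12). Rgs10 rose 2.55-fold (limma adjusted p = 6.04e-12). Grk6, a kinase that phosphorylates CXCR4, fell to 46.2% of the WT level, from 1004 ± 28.2 to 464 ± 3.45 (limma adjusted p = 1.64e-12).
Of the 24 genes for migration signaling downstream, all tested, 13 were higher and 7 lower, with a median of 0.07, and Rhoh, a small G protein of hematopoietic cells without GTPase activity, rose 2.60-fold (limma adjusted p = 2.95e-10).

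Other adhesion and retention genes also moved both ways. Plaur, encoding the urokinase receptor, fell from 8572 ± 339 to 2553 ± 81.2 normalised reads (SD, n = 3), 3.36-fold, with a deposited log2FC of -1.27 (SE 0.03, limma adjusted p = 1.12e-17). Itga5, the fibronectin receptor chain, fell 2.18-fold (limma adjusted p = 3.37e-13). Itga4, the chain of VLA-4 that holds progenitors on VCAM1, rose 1.72-fold (limma adjusted p = 6.62e-10). Itgb3 rose 2.88-fold, Flt3 2.48-fold and Itgam 2.02-fold (limma adjusted p = 4.37e-11, 4.92e-14 and 1.8e-07). Of 22 genes tested from this list, 13 were higher and 5 lower, with a median of 0.14, beside 31.6% and 31.4% of all genes.

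**Figure D4:**
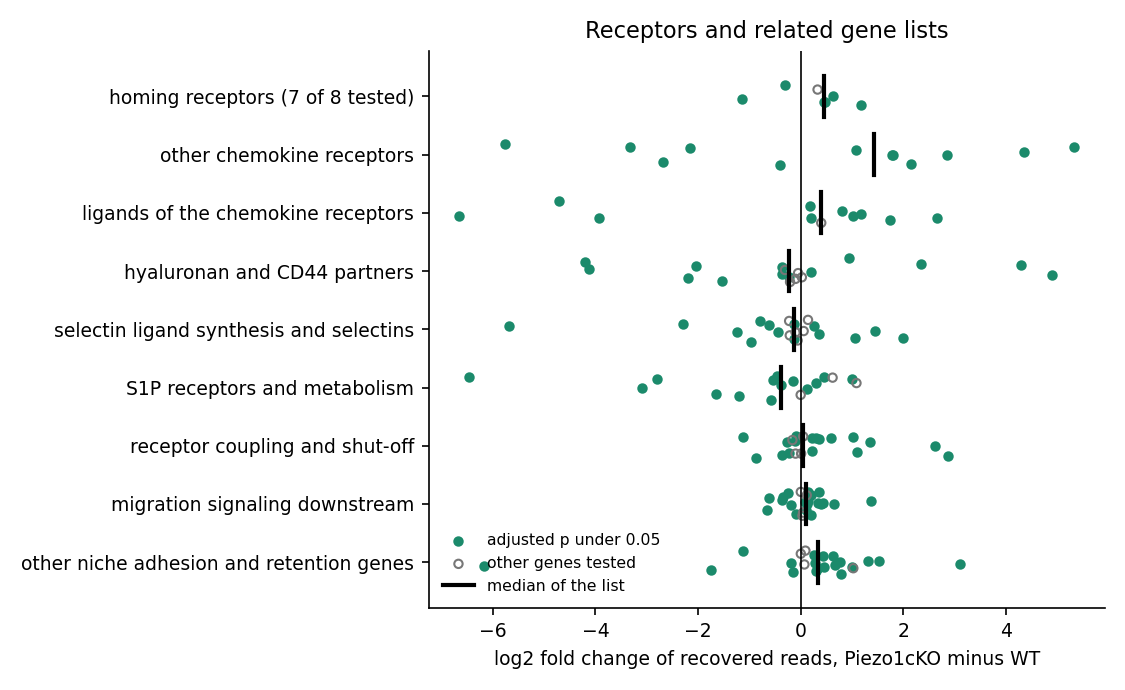
log2 fold change of recovered reads, Piezo1cko minus WT, for the homing receptors and 8 lists of related genes, with green points for an adjusted p under 0.05, open points for the other genes tested and black bars for the median of the list. The medians lie between -0.39 (S1P receptors and metabolism) and 1.44 (other chemokine receptors), beside -0.000212 over all genes, and genes without a read in one group give the points at the far left and right.

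For each tested receptor, the 2 genes with the most similar pattern were sought among the 8284 genes averaging 10 CPM or more, by the Euclidean distance of the 6 log2 values centred on their mean. For Cxcr4 these were Hilpda (0.0729) and Selenbp1 (0.0793), and for Cxcr2 they were Drap1 (0.157) and Alkbh7 (0.16). Ccr1 was closest to Dcxr (0.0442) and Lsp1 (0.0806), and Ccr2 to C230085N15Rik (0.135) and Mtrf1 (0.157). Cx3cr1 was closest to Copb1 (0.0305) and Stat5b (0.0441). Cd44 was closest to Man1a (0.0528) and Gm47585 (0.0629), and Selplg to Lamtor4 (0.0433) and Otub1 (0.0492). With 6 libraries in 2 groups, genes that differed between the groups by a like amount score as alike.

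Several members are also expressed by mature blood cells, so marker lists of other cell types were summed in the same libraries, and each is given as its range in WT and then in Piezo1cko libraries in CPM. Monocytes carry Ccr2, Ccr1 and Cx3cr1, and the 10 monocyte markers summed to 3304 to 3320.4 and to 2652 to 2729.7, with 5 of 9 tested higher and 2 lower and Fcgr1 at 0. The fall of that sum came from F13a1, with 68916 reads in WT and 45501 in Piezo1cko LSCs, and Cd14, with 18904 and 1318, while the median of the list was 0.18 on the deposited scale, and Ms4a6c, Klf4, Irf8, Lyz2 and Ly86 rose as Ccr2 and Ccr1 did. Ly6c2, at 97.8% of the WT mean, and Csf1r, at 96.2%, gave no call (limma adjusted p = 0.39 and 0.345). Neutrophils carry Cxcr2, and the 10 neutrophil markers summed to 619 to 645 and to 535 to 595, with 2 of 8 tested higher and 5 lower, Retnlg at 0 and Ly6g at 1 read in all. Most of that sum was Cebpe (20858 reads in WT and 22209 in Piezo1cko LSCs), whereas S100a9 was 42.9-fold, S100a8 11.4-fold, Ngp 9.15-fold and Camp 6.85-fold lower and Mmp8 14.9-fold higher, with a list median of -2.98 on the recovered reads. The 9 dendritic cell markers went from 47.5 to 54.9 up to 400.1 to 424, with 7 of 8 tested higher and 1 lower, most of it from H2-Ab1 and Cd74, while Itgax had at most 6 reads in a library. The 8 mast cell or basophil markers went from 283 to 297 up to 819 to 826, with 6 of 7 tested higher and Mcpt4 at 1 read in all. The 8 B cell markers went from 821 to 846 up to 1503 to 1528, with 4 of 5 tested higher, most of it from Ighm, while Ms4a1 was at 1 read in all.
The 8 T cell markers summed to 4.14 to 4.75 and to 5.44 to 8.41, with 3 of 4 tested higher, 1 lower and Cd8a at 0, and the 7 NK cell markers to 268 to 280.4 and to 167 to 170.0, most of it from Nkg7, with 2 of 3 tested higher and 1 lower. The 7 erythroid markers summed to 9.57 to 10.6 and to 2.80 to 3.37, with 3 of 6 tested lower, the 6 megakaryocyte markers to 23.3 to 26.9 and to 18.0 to 20.3, with 2 higher and 4 lower, and the 8 stroma or endothelium markers to 27.4 to 31.9 and to 53.1 to 53.9, with 2 of 3 tested higher and Col1a2 at 0. In each of the neutrophil, T cell, NK cell, dendritic and mast cell lists, 1 gene tested had no read in 1 group. The erythroid and megakaryocyte lists held 2 each (recovered reads), and calls of such genes are no support. In the dendritic list this gene was Itgax, which was not tested on the deposited scale and so is not among the 8 counted above. The part of these cell types in the changes of the receptors was not tested.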

How the data were processed

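Transcripts were measured in 3 WT and 3 Piezo1cko LSC libraries, grouped by the sample titles. Libraries followed a Smart-seq2 based protocol with oligo-dT priming, preamplification and Tn5 fragmentation. Per the submitters' processing notes, the authors used fastp (version 0.20.1), HISAT2 (version 2.2.1) on GRCm38, featureCounts (version 2.0.1) and DESeq2 (version 1.28.1), and the annotation release is not given in the sources used here. The deposited values are log2 values normalised for library size, of the form of a regularized log, and the transform is not named in the sources used here.

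The design had assumed log2 values, and the values were used as deposited, with no pseudocount. limma (version 3.58.1, under R 4.3.3) was run by lmFit and eBayes with a variance trend and no covariates on the 16746 genes whose mean reached 1, with Benjamini-Hochberg adjustment over all of them. The DEG thresholds of the study were kept (adjusted p under 0.05, log2FC over 1 in size). The transform was undone by fitting size factors and pull so that reads came out whole, and 1 of 24 starts of the search gave the best fit. With the pull set 10% off, 22.3% of the values of genes with a mean of at least 1 read lay within 0.1 of a whole number. With the fitted pull 92.6% did. That share was 85.2% for genes averaging 1000 to 10000 reads and 50.7% for genes above 10000. On simulated reads of 17352 genes, 100% came back exactly. These were made with the same transform and the fitted settings, so they cannot show that the deposited values follow it. limma-voom was run on the recovered reads of the 17352 genes that had 10 reads or more in all libraries together. Simulated Piezo1cko and WT libraries had 95 genes changed by 0.75 on the log2 scale and 105 by 1.5. The fit of deposited values (16628 genes) found 90 and 104 of them, with medians of 0.534 and 0.519 of the true log2 fold change, and the fit of recovered reads (17032 genes) found 89 and 102, with medians of 1 and 0.987.

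Exon lengths and coordinates came from GENCODE M21 on GRCm38, and start regions from RefSeq on GRCm38.p6. Within groups, replicate pairs differed by slightly more than counting noise (mean chi-square per gene 1.42 to 1.86, where noise gives about 1) and were counted as separate.

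The members, the gene lists and the rule for naming genes were chosen with earlier results of these data known. Named were the 8 members, Piezo1, at most 6 genes per related list that were DEGs on recovered reads with a mean of at least 10 CPM, the partners Cxcl12, Ackr3, Cxcr1, Cx3cl1, Cd74, Fut7, S1pr4, Sphk1, Cd69, Rgs18 and Itga4, and the 2 genes most like each member. All other genes named were chosen after their values were seen. Some genes of the lists are not reported here, but the counts of each list hold them. No per-sample column was left out. Alternatives were other filters, library scaling, a replicate block, no variance trend, recovered reads with their own filters and scaling, a test against 1.5-fold, and each library left out in turn, the last on recovered reads being chosen after seeing the data. The other steps used Python 3.11.15, numpy 2.4.6, scipy 1.17.1, pandas 2.3.3 and matplotlib 3.10.9.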

Additional observations from a re-analysis of the deposited data

How the results depend on the processing

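The fold changes of the 7 receptors kept their direction and their side of the 0.05 threshold under every alternative run other than the test against 1.5-fold, with 6 receptors called each time, and Cxcr2 gave no call in any of them (adjusted p of 0.0616 when rescaled on library medians, to 0.381 without Piezo1cko replicate 3), being left untested by the filter at a mean of 50 reads. The number of receptors past both DEG thresholds was 0 on the deposited values and 2, Ccr2 and Cd44, on the recovered reads, also on library totals (2), without a filter on low counts (2), with a replicate block (2) and in the test against 1.5-fold (2). It was 2 to 2 on recovered reads and 0 to 0 on deposited values when each library was left out. By construction the deposited values shrink differences. With all libraries but one, the log2 fold change on recovered reads ran from 1.11 to 1.21 for Ccr2 and from -1.17 to -1.11 for Cd44.

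The correlations of same-numbered WT and Piezo1cko libraries around their group means were 0.195, 0.161 and 0.0696, not all over 0.1, so the numbers were not taken to pair the samples, although each library correlated best with its own number. The replicate block called the same number of receptors (6) on either scale, 11055 genes in place of 10556 on the deposited values and 11224 in place of 10920 on the recovered reads, and it was not examined for single genes other than the receptors. Depth limits Cxcr2, with at most 41 reads in a library, and S1pr1. Results could not be checked against libraries known to come from separate mice.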
